A study of Mus musculus with 46 samples.

Results

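The 17 fragments described here are the candidate cis-regulatory elements (cCREs, stretches of DNA proposed to act as enhancers or silencers) of a cluster of zinc finger genes at one end of the mouse Klf2 locus on chromosome 8. They were chosen by name and position: names that start with E, a start no further along chromosome 8 than that of E022, at 72004717, and not E007, E008 or E022 itself. They are 17 of the 87 Klf2-locus cCREs that were measured with a promoter, and of 373 such cCREs in the whole series. No measured value enters the rule, but the 3 exceptions were set with earlier results known, and they are extreme. In the assay with the cCRE downstream of the reporter, E007 ranked 1 and E008 ranked 3 of 80 cCREs by mean effect, and E022, with 4 constructs, ranked 80. Their mean log2 effects there were 1.17, 0.88 and -0.93. The first cCRE past the limit, E027, starts at 72105226 and had a mean log2 effect of 0.26 there, against 0.75 for E021, the last one inside it, which starts at 71988366.

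The cells were E14TG2a, a line of mouse embryonic stem cells, kept in 2i+LIF, a medium that holds such cells undifferentiated. No group was treated or edited. All groups differ only in the plasmid library that was brought in by nucleofection and in the nucleic acid that was sequenced. Barcodes were read in reporter RNA (cDNA) 24 h later and in the plasmid input (pDNA). Each library mix had 3 biological replicates of cDNA and 2 technical replicates of pDNA. The mix used for the Upstream assay held the Klf2, Nanog and negative control libraries, with 1 or 2 fragments before the reporter. The mix used for the Downstream assay held inserts placed after a reporter that was driven by 1 of 10 Klf2-locus promoters, or by none. Both assays read plasmids that are not in the genome, in a single cell line, so native chromatin and distance are not part of the measurement.

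An enhancer is a stretch of DNA that raises transcription from a promoter through the transcription factors it binds, and is known to act from either side of a gene and in either orientation. In a massively parallel reporter assay many such fragments are tested at once, each marked by barcodes in the transcript. Zinc finger genes of the mouse often lie in clusters that arose by duplication. Many encode DNA-binding repressors that are known for silencing transposable elements in embryonic stem cells. Klf2, which names the locus, is itself a zinc finger transcription factor of the pluripotency network.

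The 17 cCREs lie between 71885062 and 71988816 on chromosome 8 of mm10, a span of 103754 bp, and each has a start and an end 450 bp apart. Positions are as the deposited tables give them, and gene bounds are those of RefSeq on the same build. The gene table gives no exons, so exonic and intronic positions were not told apart. E001 (71885062-71885512) lies within Zfp709 (71882068-71892565). E003 (71893824-71894274), E004 (71896893-71897343), E005 (71900277-71900727) and E006 (71900631-71901081) lie between Zfp709 and Zfp882, and E005 and E006 share 96 bp. E009 (71940771-71941221) lies between Zfp617 and Zfp961. Within Zfp961 (71951048-71970333) lie E010 (71951689-71952139), E011 (71952937-71953387), E012 (71954696-71955146), E013 (71964186-71964636) and E015 (71968178-71968628). E016 (71971930-71972380), E017 (71974191-71974641), E018 (71978753-71979203) and E019 (71984525-71984975) lie between Zfp961 and Cyp4f18, a cytochrome P450 gene. E020 (71988190-71988640) and E021 (71988366-71988816) share 274 bp and overlap an end of Cyp4f18 (71988482-72009668) in part.

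The cluster also supplied promoter fragments to the library. P001 (71908245-71908695) spans the start of Zfp882, P002 (71908703-71909153) lies just inside that gene, and P003 (71950662-71951112) spans the start of Zfp961. All 3 were paired with the cCREs in the Upstream assay, and P001 also in the Downstream assay. The promoter windows of both genes are printed because P001 is the reporter promoter on which the largest share of the cluster's cCREs lay above control inserts. The windows are 300 bases long and end 50 bases after the RefSeq start (GRCm38.p6), and capitals mark matches to the motifs searched. They are chr8:71908356-71908655, plus strand, which lies wholly inside P001, and chr8:71950816-71951115, plus strand, of which 297 bases lie inside P003.

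Zfp882, P001: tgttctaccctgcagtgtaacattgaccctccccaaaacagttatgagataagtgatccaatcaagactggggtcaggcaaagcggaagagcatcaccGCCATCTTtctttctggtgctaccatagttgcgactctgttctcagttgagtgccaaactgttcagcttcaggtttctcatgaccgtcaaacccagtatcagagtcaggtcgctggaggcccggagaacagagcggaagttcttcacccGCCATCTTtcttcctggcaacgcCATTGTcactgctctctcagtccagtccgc
Zfp961, P003: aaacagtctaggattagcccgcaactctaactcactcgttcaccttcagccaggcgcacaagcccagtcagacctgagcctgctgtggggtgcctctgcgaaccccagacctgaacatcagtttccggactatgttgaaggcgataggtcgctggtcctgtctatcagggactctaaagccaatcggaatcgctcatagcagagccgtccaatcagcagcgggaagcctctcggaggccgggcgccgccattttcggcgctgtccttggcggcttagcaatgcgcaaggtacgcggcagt

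The Zfp882 window holds 51.3% G and C and 10 CpG dinucleotides, and the Zfp961 window 58.3% and 21, against medians of 53% and 7 over 32544 RefSeq promoter windows of the same length. Both strands were searched for ATGCAAAT (octamer), CATTGT (SOX), TCAAGGTCA (ESRRB), GGGNGTGG (KLF), TGANTCA (AP-1), TGACGTCA (CREB), AAGATGGC (YY1) and TTCCNGGAA (STAT), and for an NRF1 and a CTCF motif. The Zfp882 window holds AAGATGGC 2 times, from bases 99 and 248 and read on the opposite strand as GCCATCTT, a motif found in 2.77% of all windows. It holds CATTGT once, from base 271, a motif found in 12.4% of all windows. These matches do not overlap one another. The Zfp961 window holds none of the 10. The sequences of the cCREs themselves were not analysed here.

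The measure is an activity, the authors' ratio of cDNA to pDNA barcodes per construct and biological replicate, on a linear scale. What sets an activity of 1 is not given in the sources used here, and neither is the number of barcodes or reads behind a value, so the depth is unknown. In the Upstream assay 781 constructs of a member before a promoter were measured, 13 of them with a replicate at 0, which left 768 on the log2 scale. In the Downstream assay there were 297 with a promoter and 30 in the vector without promoter. E001 had 1 Upstream construct and E016 had 6 Upstream and 4 Downstream, so their means rest on little. Across the members' constructs, log2 activities of replicate pairs correlated with Pearson's r between 0.94 and 0.96 Upstream (768 constructs) and between 0.97 and 0.99 Downstream (297). Replicates of weak Upstream constructs differed in level: the median activity of the 29 oriented members alone was 0.123 in replicate 1, 0.0721 in replicate 2 and 0.255 in replicate 3.

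Placed alone before the reporter, E011 had the highest activity of the members. This cCRE, which lies within Zfp961, had activities of 3.27, 3.02 and 3.17 in plus orientation, a mean of 3.15 ± 0.126 (SD, n = 3). In minus orientation it had 1.67, 1.65 and 1.79, a mean of 1.70 ± 0.0757. All 6 values exceed 1, and the orientations do not overlap. They ranked 2 and 5 among the 144 oriented cCREs of the locus that were measured alone. The other 27 oriented members had means from 0.0860 for E016 in plus orientation to 0.515 for E021 in plus orientation. Close to E021 were E004 in minus orientation at 0.496, E005 in plus orientation at 0.458 and E006 in plus orientation at 0.456. E021 in plus orientation had 0.520, 0.395 and 0.629 and E004 in minus orientation 0.469, 0.434 and 0.586, each above the members' median in the same replicate. Above a mean of 1 were 2 of the 29 oriented members and 4 of 115 oriented fragments of the other cCREs of the locus. The promoter fragments alone ranged from 0.0992 to 18.6. P003 in plus orientation, the Zfp961 promoter, had 9.63, 9.38 and 7.63, and P001, the Zfp882 promoter, had 1.12, 1.18 and 1.17. P002, in the same orientation, had only 0.145, 0.109 and 0.282.

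To ask which members raised or lowered a promoter, each of the 768 Upstream pairs was compared with its promoter alone, by limma on log2 activity with Benjamini-Hochberg adjustment over all 3685 Klf2-locus pairs. Of the members' pairs, 27 (3.52%) were higher, against 4.1% of all pairs, and 64 (8.33%) were lower, against 12% of all pairs. The median log2 difference was -0.22 for the members and -0.28 over all pairs. With the replicate number as a block, since a pair and its promoter come from the same cDNA library, 57 members' pairs were higher and 143 lower. With any 1 replicate left out, no pair passed. Judged against the median cCRE construct with the same promoter and orientation, 42 members' pairs were higher and 3 lower, so the balance of higher and lower calls turns with the baseline. Here and below, members' counts with a block or on another baseline are given without the share over the locus. Those counts are thus no comparison with the other cCREs.

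The higher calls were held by few cCREs. E011 had 11 of its 21 pairs higher, E006 had 7 of 47 and E021 had 5 of 59. The most lower calls were those of E015, the last of the cCREs within Zfp961, at 20 of 72 pairs. E004 had 10 of 70, E013 9 of 85 and E012 6 of 36, shares nearer to the 12% of all Klf2-locus pairs. The lower calls also differed with the activity of the promoter. Where the promoter alone had an activity of 1 or more, 16 of 366 pairs (4.37%) were higher and 61 (16.7%) lower, against 4.26% and 24.5% of all 1760 such pairs of the locus. Where it was below 1, 11 of 402 (2.74%) were higher and 3 (0.746%) lower, against 3.95% and 0.519% of 1925. The split by promoter activity was thus seen over all cCREs. At the low end of the scale the replicates differ in level, as described above, and the part of this in the calls was not tested.

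The largest rises were on P002, the weak fragment inside Zfp882. E004 in minus orientation before P002 in plus orientation had activities of 2.56, 3.00 and 2.51. The promoter fragment alone had 0.145, 0.109 and 0.282, so the groups do not overlap. The log2 difference was 4.02 (SE 0.377, adjusted p = 0.0068 by limma). E021 in plus orientation before the same fragment had 1.96, 2.54 and 1.91, a log2 difference of 3.68 (SE 0.387, adjusted p = 0.0077 by limma). The rise was not shared by the same cCREs turned round. E004 in plus orientation gave 0.125, 0.0907 and 0.272, which overlap with the fragment alone. E021 in minus orientation gave 0.281, 0.171 and 0.355. Over the 22 members' constructs on P002 in plus orientation the median mean activity was 0.220, and the third highest, E006 in plus orientation, had 0.501. E004 in minus orientation before P002 in minus orientation had 0.229, 0.144 and 0.399, which overlap with the turned fragment alone at 0.185, 0.188 and 0.320. E021 in plus orientation before the turned fragment had 0.675, 0.686 and 0.698, with no overlap and a log2 difference of 1.62 (SE 0.249, adjusted p = 0.018 by limma).

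Pairs of E011 with several weak promoter fragments were higher than the fragment alone. With P002, both in minus orientation, E011 had 2.65, 2.57 and 2.46, against 0.185, 0.188 and 0.320 for the fragment alone. That is a log2 difference of 3.52 (SE 0.250, adjusted p = 0.0064 by limma). With P023, which lies within Tmem38a, both in minus orientation, it had 1.33, 1.34 and 1.27 against 0.144, 0.0754 and 0.289, a log2 difference of 3.16 (SE 0.501, adjusted p = 0.018 by limma). With P011, which overlaps Cib3, both again in minus orientation, it had 0.520, 0.778 and 0.929 against 0.129, 0.0984 and 0.275, a log2 difference of 2.25 (SE 0.457, adjusted p = 0.033 by limma). None of these groups overlap. E011 alone in minus orientation, as given above, had 1.67, 1.65 and 1.79. In each replicate this lies above its pairs with P023 and P011 and below its pair with P002. Whether the fragments themselves were raised was not tested. On P003, its neighbouring promoter at the start of Zfp961, E011 in plus orientation had 9.33, 11.3 and 7.78 against 9.63, 9.38 and 7.63, a log2 difference of 0.08 that did not pass (adjusted p = 0.88 by limma).

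Among pairs that passed, the largest falls were smaller than the largest rises. Some pairs of low activity had larger differences that did not pass, up to E015 in plus orientation with P007 in minus orientation at -2.72 (SE 0.724, adjusted p = 0.064 by limma). E015 with P017, the promoter fragment of Eps15l1, both in minus orientation, had 0.721, 0.668 and 0.860 against 2.20, 2.21 and 2.13 for the promoter alone. That is a log2 difference of -1.55 (SE 0.139, adjusted p = 0.0068 by limma). The groups do not overlap, and all 3 values of the pair lie below 1. E016 with P001, both in plus orientation, had 0.330, 0.412 and 0.650 against 1.12, 1.18 and 1.17, a log2 difference of -1.38 (SE 0.273). E015 with P007, the fragment that overlaps the olfactory receptor gene Olfr374, both in minus orientation, had 0.0946, 0.120 and 0.187 against 0.320, 0.276 and 0.416, a difference of -1.37 (SE 0.311). E018 with P019, the promoter fragment of Cherp, both in plus orientation, fell by 1.30 (SE 0.276), with 0.641, 0.757 and 1.25 against 2.16, 2.09 and 2.00. E004 in plus orientation with P013 of Fam32a in minus orientation fell by 1.28 (SE 0.291), with 0.155, 0.114 and 0.217 against 0.380, 0.314 and 0.460. The groups of these last 4 pairs do not overlap either, and their adjusted p-values by limma were 0.031, 0.043, 0.037 and 0.044. The falls of E018 and E004 were not shared by the same cCREs turned round. E018 in minus orientation gave 3.58, 1.96 and 2.16 with P019 in plus orientation. E004 in minus orientation gave 0.623, 1.06 and 1.23 with P013 in minus orientation, above the promoter alone. E015 turned round was low with P007 in minus orientation as well, at 0.0550, 0.0186 and 0.126.

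Averaged over promoters and orientations, and set against the median cCRE construct of each promoter in the same orientation and replicate, the Upstream effect of a member is its mean boost index. It could be computed for 16 members, those with 3 or more promoter fragments. By limma over 79 cCREs, 4 members (25%) were higher than 0, against 19% of all, and 3 (18.8%) were lower, against 32.9% of all. The median was 0.03 over the members and -0.09 over all cCREs. E011 had indices of 1.51, 1.83 and 1.17, a mean of 1.5 ± 0.330 (SD, n = 3, adjusted p = 8.1e-04 by limma), and ranked 3. E006 had 0.58, 0.69 and 0.41, a mean of 0.56 ± 0.140 (adjusted p = 0.0044 by limma), and ranked 8. E021, at the end of Cyp4f18, had 0.63, 0.53 and 0.40, a mean of 0.52 ± 0.114 (adjusted p = 0.0044 by limma), and ranked 9. E005 had 0.34, 0.45 and 0.26, a mean of 0.35 ± 0.0939 (adjusted p = 0.012 by limma), and ranked 13. The replicates of E011 do not overlap with those of the other 3.

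At the other end, E015 had indices of -0.44, -0.56 and -0.31, a mean of -0.44 ± 0.126 (adjusted p = 0.0069 by limma), and ranked 73. Against the promoter alone, a different baseline, the mean of E015 with each of its 21 promoter fragments was below 0. On that baseline the median over all Klf2-locus pairs was itself -0.28. E009, between Zfp617 and Zfp961, had -0.46, -0.21 and -0.21, and E012, within Zfp961, had -0.38, -0.34 and -0.10. Their means of -0.29 and -0.28 passed with adjusted p of 0.028 and 0.034 by limma. E016 had -0.16, -0.69 and -0.02, a mean of -0.29 ± 0.357 over 5 promoter fragments, which did not pass (adjusted p = 0.13 by limma). The remaining 8 members had means between -0.13 (E003) and 0.12 (E018), and none passed. Without replicate 1 no member passed in either direction.

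Other Upstream layouts give readouts that did not enter these indices. In constructs of 2 cCREs, E011 next to the reporter had a median activity of 2.61 over 55 constructs and ranked 1 of 75 cCREs, whose median was 0.115. With E011 as the first of the pair the median was 1.65 over 54 constructs, rank 1 of 74. With a promoter fragment before it, E011 next to the reporter had a median of 2.03 over 18 constructs, rank 1 of 73. E021 ranked 6 and E006 ranked 9 in that layout, with medians of 0.737 and 0.540. E015 was near the bottom in all 3 layouts: its ranks were 73 of 75, 71 of 74 and 71 of 73, with medians of 0.0847, 0.0968 and 0.156. E016 ranked 75 of 75 next to the reporter in pairs of cCREs, with a median of 0.0661 over 10 constructs. These medians mix partners and orientations, and the set of partners differs from cCRE to cCRE.

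In the Downstream assay the members were set against control inserts with the same promoter. The 20 control inserts were 15 shuffled sequences, made from E006, E027, E030, E046 and E095, and 5 random sequences. Only 9 of them were measured with P001 and 17 with P021. These controls were in other sub-libraries than the cCREs, so a difference between a cCRE and the controls cannot be told apart from one between sub-libraries. By limma with Benjamini-Hochberg adjustment over all 1364 cCRE constructs, 123 of the members' 297 pairs (41.4%) were higher, against 37% of all. A further 40 (13.5%) were lower, against 15.3% of all. The median log2 difference was 0.21 for the members and 0.18 over all pairs. With the replicate number as a block, 169 were higher and 80 lower, and without replicate 2, 90 were higher and 22 lower. Set against the promoter vector alone, which gave more than the controls with each of the 10 promoters, 46 were higher and 126 lower.

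Control constructs of a promoter were themselves spread widely, so each pair was also set against their range. Of the members' pairs, 18 of 297 (6.06%) were above every control construct with that promoter, against 5.43% of all cCRE pairs, and none was below them all, against 1.32%. All but E006 with P013 were pairs with P001. For P001 only 10 control constructs were measured, spanning log2 differences of -0.52 to 0.72, while 32 to 40 were measured for each of the other promoters. The controls with P001 had mean activities of 0.142, 0.177 and 0.207, and the P001 vector alone 0.299, 0.368 and 0.394. Of the 29 members' pairs with P001, 21 (72.4%) passed as higher than the control mean and 0 as lower. Over all cCREs 69.2% of pairs with P001 passed as higher and 5.26% as lower. Against the P001 vector alone 3 of the 29 were higher and 11 lower. Without P001, 102 of 268 pairs (38.1%) were higher than controls and 40 (14.9%) lower, against 33.5% and 16.4% of 1231 pairs over all cCREs.

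E006, which lies between Zfp709 and Zfp882, was higher than the control mean on every promoter. All 20 of its pairs passed, 10 in each orientation, with log2 differences from 0.60 to 1.48. Its replicate means were 1.05, 0.93 and 1.02, a mean of 1.00 ± 0.0640 (SD, n = 3), rank 2 of 80. Of the 20 pairs, 3 were also above every control construct with their promoter, both with P001 and the minus orientation with P013. Against the promoter vectors alone 16 of the 20 pairs were higher and none lower, with differences from 0.10 to 0.95. On P013 of Fam32a, in minus orientation, E006 gave 2.38, 1.98 and 1.93, against 0.955, 0.845 and 0.746 for the controls and with no overlap. On P001 in minus orientation it gave 0.402, 0.484 and 0.577, a log2 difference of 1.48 (SE 0.165, adjusted p = 5.0e-05 by limma).

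The control inserts include 3 shuffled versions of E006. Their means over the constructs measured were -0.16 ± 0.0728, -0.09 ± 0.0711 and 0.12 ± 0.0486 (SD, n = 3), so all 3 lie below the 1.00 of E006 itself. Single constructs of these versions overlapped with E006: those of the first ran from -1.23 to 2.76, while those of E006 ran from 0.60 to 1.48. The shuffled versions share the sub-libraries of the controls, so the same limit holds for this comparison.

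E021 passed as higher than the control mean in 19 of 20 pairs. Its replicate means were 0.80, 0.69 and 0.76, a mean of 0.75 ± 0.0578, rank 7 of 80. E011 had 0.72, 0.61 and 0.55, a mean of 0.62 ± 0.0851, rank 11, with 13 pairs higher and 1 lower. E010, its neighbour within Zfp961, had 0.62, 0.53 and 0.60, a mean of 0.58 ± 0.0446, rank 13, with 14 of 20 pairs higher. The replicates of E011 and E010 overlap. E019 and E020, both near Cyp4f18, had means of 0.52 and 0.47, and E003 and E012 had 0.20 each. These 8 members (47.1%) passed as higher by limma, against 58.8% of 80 cCREs. The direction of some turns with the baseline. Against the promoter vectors alone, E003 had 1 of 20 pairs higher and 10 lower, and E012 had 0 of 17 higher and 7 lower. On that baseline E021 had 7 pairs higher and 0 lower, E011 9 and 4, and E020 4 and 2.

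The members that passed as lower were 3 (17.6%), against 22.5% of all. Set against the median construct in place of the controls the count was 9, and with medians over promoters it was 7. E015 had -0.26, -0.27 and -0.34, a mean of -0.29 ± 0.0420, rank 72. E016 had -0.26, -0.18 and -0.37 over 4 constructs, a mean of -0.27 ± 0.0964, rank 71. E001, within Zfp709, had -0.24, -0.32 and -0.21 over 12 constructs, a mean of -0.26 ± 0.0564, rank 70. That mean joins unlike pairs: 2 of the 12 passed as higher and 7 as lower. Its pairs averaged -0.07 in plus and -0.42 in minus orientation. The 3 members E015, E016 and E001 overlap in their replicates, and without replicate 1 the count of lower members was 6. E005 had -0.03, -0.06 and -0.13, which did not pass (adjusted p = 0.052 by limma). The median of the 17 members was 0.06, against 0.20 over all 80 cCREs. Since the means of the 20 single controls ran from -0.44 to 0.64, only E006 and E021 lay above them all, and no member lay below. Of all 80 cCREs, 9 lay above and 4 below.

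The pairs with the largest Downstream differences were mostly those of E011. In plus orientation after P021, the promoter fragment of Med26, it gave 5.76, 5.15 and 5.83, against 1.70, 1.62 and 1.74 for the controls. The log2 difference was 1.72 (SE 0.108, adjusted p = 1.8e-06 by limma), and the groups do not overlap. E003 in plus orientation after P009 of Rab8a gave 2.28, 2.03 and 1.89 against 0.737, 0.698 and 0.642, a log2 difference of 1.58 (SE 0.116, adjusted p = 5.8e-06 by limma). E011 after P001 gave 0.477, 0.569 and 0.501 in minus orientation and 0.460, 0.512 and 0.495 in plus orientation, log2 differences of 1.57 and 1.49. Without any promoter in the vector E011 gave more: 0.558, 0.701 and 0.559 in minus and 0.737, 1.01 and 0.773 in plus orientation. Whether P001 itself was raised was not tested. The lowest differences were held by E015 in minus orientation: 0.622, 0.536 and 0.480 after P014 of Ap1m1, against 1.23, 1.15 and 1.04 for the controls. Its log2 difference there was -1.07 (SE 0.127, adjusted p = 7.6e-05 by limma). After P009 and P017 E015 in minus orientation had log2 differences of -0.89 and -0.87, with 0.402, 0.397 and 0.327 and with 0.825, 0.903 and 0.760. After P017 the next lowest were E016 in plus orientation, with 0.859, 0.934 and 0.841, and E001 in minus orientation, with 0.812, 0.869 and 0.960. Both had a log2 difference of -0.79, against controls at 1.55, 1.59 and 1.42.

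On P016, the promoter of Klf2 itself, 6 of the members' 29 Downstream pairs were higher than controls and 2 lower, 20.7% and 6.9%, against 16.4% and 12.1% of all cCRE pairs with it. The largest was E011 in plus orientation, with 1.70, 2.12 and 1.81 against 0.629, 1.06 and 0.899, a log2 difference of 1.15 (SE 0.177, adjusted p = 3.4e-04 by limma). The others were E010 in plus orientation and E006 and E021 in both. Against the P016 vector alone 2 of the 29 were higher and 10 lower, with a median log2 difference of -0.26. In the Upstream assay 1 of 21 pairs with the Klf2 promoter (4.76%) was higher and 1 lower than the promoter alone, against 11% higher and 8.26% lower of all 109 such pairs. E019 in plus orientation gave 2.63, 2.32 and 2.12 against 1.37, 1.20 and 1.49, and E012 in minus orientation gave 0.665, 0.706 and 0.910. E011 with the Klf2 promoter was not among the Upstream constructs used here.

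In the vector without promoter, 14 of 30 members' inserts (46.7%) were higher than the control inserts and 1 (3.33%) lower by limma, against 38.7% and 6.57% of 137 cCRE inserts. With the replicate number as a block the counts were 23 and 4, without replicate 1 they were 22 and 4, and without replicate 3 they were 5 and 0. E011 gave 0.737, 1.01 and 0.773 in plus orientation and 0.558, 0.701 and 0.559 in minus orientation, while the controls had 0.0811, 0.125 and 0.107. The log2 differences were 3.01 and 2.55 (SE 0.292, the same for all members' inserts). E018 in plus orientation followed with 0.214, 0.351 and 0.305, a difference of 1.46, then E006 with 1.41 in minus and 1.38 in plus orientation. Only E016 in minus orientation was lower, with 0.0591, 0.0957 and 0.0439.

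Orientation mattered for the members Downstream, as it did for cCREs in general. Of 139 combinations of a member and a promoter with both orientations, 59 (42.4%) were higher in plus orientation by limma, against 44.1% of 612 such combinations of the locus. In minus orientation 49 (35.3%) were higher, against 36.4%. E005 was higher in minus orientation on all 10 promoters, with a mean log2 difference of -0.80. On P013 it gave 0.631, 0.569 and 0.475 in plus and 1.32, 1.08 and 1.03 in minus orientation. Against controls, its plus orientation was lower in 8 of 10 pairs and its minus orientation higher in 5 of 10. Its mean near 0 thus joins orientations that differ. E013 was higher in minus orientation on 7 of 10 promoters, and E021 on 8 of 10.

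E011 and E015 were each higher in plus orientation on 9 of 10 promoters. The largest difference was that of E011 on P021, with 5.76, 5.15 and 5.83 in plus against 1.66, 1.49 and 1.45 in minus orientation, a log2 difference of 1.87 (SE 0.0523, adjusted p = 3.2e-05 by limma). E003 on P009 differed by 1.53, with 2.28, 2.03 and 1.89 in plus against 0.918, 0.639 and 0.613 in minus orientation. E011 on P014 differed by 1.39, with 2.09, 1.79 and 1.68 in plus against 0.738, 0.742 and 0.633 in minus orientation. In minus orientation this pair was the 1 pair of E011 that passed as lower than the control mean. E015 in minus orientation was lower than controls in 8 of 10 pairs, and in plus orientation lower in 1 and higher in 1. E006 had means of 1.01 in plus and 0.99 in minus orientation. These average over differences of either sign, as 4 promoters passed as higher in plus and 3 as higher in minus orientation, with log2 differences from -0.20 to 0.21.

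In the Upstream assay no orientation difference passed after limma with Benjamini-Hochberg adjustment, 0 of 237 among the members and 0 of 1226 over the locus (0% called). At an unadjusted p under 0.05 there were 64 among the members and 343 over all cCREs, and the smallest adjusted p was 0.059. E004 on P002 in plus orientation, described above, differed by -4.20 on the log2 scale (adjusted p = 0.073 by limma), and E021 on it by 3.04 (adjusted p = 0.073 by limma).

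Whether the members favoured the promoters of their own cluster was asked in the Upstream assay, where 15 members had at least 2 fragments among P001, P002 and P003 and at least 2 others. By limma 0 of 15 members, and 0 of 70 cCREs (0%), differed after adjustment. At an unadjusted p under 0.05, 6 members differed, all of them higher with cluster promoters, as were 15 of the 18 cCREs of the locus. The largest was E021, with a mean boost index of 1.12 on cluster promoters and 0.43 on others, a difference of 0.69 ± 0.262 (SD, n = 3, adjusted p = 0.058 by limma) that was above 0 in 3 of 3 replicates. E006 had 0.97 and 0.49, E011 had 1.82 and 1.39, and E020 had 0.41 and -0.0038. Other cCREs of the locus had differences as large, such as E038 at 0.54 and E041 at 0.46, which ranked 2 and 4 of 70. With a pseudocount of 0.01, which brings the constructs with a 0 back in, 3 members passed as higher. The count over all 70 cCREs with the pseudocount is not given here, so a preference particular to the members is not shown. Activity on P002 enters these means, and the weak-promoter rises described above are part of them.

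The cluster holds 2 pairs of overlapping cCREs. This comparison was chosen after the tables had been read. Downstream, E006 was higher than E005 with the same promoter and orientation in 20 of 20 constructs by limma, a mean log2 difference of 1.07 ± 0.0841 (SD, n = 3). E021 was higher than E020 in 15 and lower in 2 of 20, a mean of 0.29 ± 0.0194. The members thus had 35 of 40 higher and 2 lower, where 46.2% and 41% of all 78 such comparisons in the locus were, in the order of position. These shares include the members. The other 38 comparisons came only from E007 with E008 and E091 with E092, with 1 higher and 30 lower. The sign depends on that order, and constructs of a pair share its cCREs. Upstream, E006 and E005 were close, with a mean difference of 0.06 ± 0.0556 and 7 of 46 comparisons higher. E021 was higher than E020 in 19 and lower in 1 of 44, with a mean of 0.52 ± 0.147. Over all 167 such Upstream comparisons, the members' included, 15.6% were higher and 34.7% lower. The 77 from E007 with E008 and E091 with E092 had 0 higher and 57 lower. Leaving out replicate 1 left 0 of the members' Upstream calls, and leaving out replicate 2 or 3 left 9 higher.

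Set side by side, the mean effects of the 16 members with values in both assays had a Pearson's r of 0.59 and a Spearman's rho of 0.55, and all 75 cCREs with both had 0.62 and 0.60. Without E011 and E006 the values over 14 members were 0.49 and 0.34. The points share promoters within an assay and the same replicates. E011, E006 and E021 were high in both assays and E015 was low in both. E010 and E019 lay above the control inserts Downstream, at 0.58 and 0.52. Upstream their means were -0.00098 and -0.03, against the median construct and so on another baseline. Against the promoter vectors alone Downstream, E010 had 3 of 20 pairs higher and 2 lower, and E019 had 3 of 20 higher and 1 lower.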

How the data were processed

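Reporter activities from 6 cDNA samples were used: 3 biological replicates of the Upstream mix with the Klf2 library and 3 of the Downstream mix, grouped by title. The activities are the authors' deposited ratio of cDNA to pDNA barcodes, linear and given per replicate. Per the submitters' processing notes, mm10 and Bowtie2 were used, with no role stated. Barcode filters, averaging and scaling are not given in the sources used here, nor are counts, so no counting interval was possible. All replicates of a mix received the same pool, so variation among the plasmids that carry a given construct is not in the spread. A further 19 value columns were not used.

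The members, the promoters of the cluster and the lists were chosen with earlier results of these data known. A 0 in any replicate removed a construct, which set the Upstream pairs tested at 768 of 781. The tests used limma 3.58.1 under R 4.3.3 on log2 activities (lmFit, eBayes, Benjamini-Hochberg over all Klf2-locus features, adjusted p under 0.05), and the script was tested on simulated data. Upstream pairs were compared with the promoter alone, Downstream pairs with the mean over control inserts, both 3 values against 3, without a block. Mean boost indices, orientation, cluster promoters and overlapping cCREs were tested on 3 replicate values against 0. For Downstream means limma gave every cCRE the same SE of 0.0360, since it estimated no difference between cCREs in the variance over replicates. Adjusted p-values of these means are not printed where they are far below the threshold. The members' inserts without promoter likewise all had the same SE. The replicate number pairs a construct with its baseline by construction. Deviations of both from their means correlated at 0.02, 0.59 and 0.79 in Upstream replicates 1, 2 and 3, and at 0.91, 0.84 and 0.85 Downstream.

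Members named with replicate values were the 4 highest and 4 lowest mean indices per assay, the 5 highest and 5 lowest pairs among those that passed, and the 3 largest orientation differences. E005 and E006, E020 and E021, the P002 constructs, the Klf2 promoter pairs and the count without P001 were chosen after values were seen. Alternatives were a replicate block, other baselines, a pseudocount of 0.01, a filter at a baseline activity of 0.1, medians over promoters, at least 8 promoters, and each replicate left out. No genome of the build was used, so the planned search of the cCRE sequences was not run, and motifs were searched in RefSeq promoter windows only.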

Additional observations from a re-analysis of the deposited data

Results flagged for a closer look

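For 4 of the 16 members measured in both assays, all 3 replicates had one sign Upstream and the opposite sign Downstream, each against a median construct. The same held for 15 of all 75 cCREs, and the difference between assays was not tested. The baselines are not alike: Upstream the median was over cCRE constructs, and Downstream it also took in the shuffled control inserts. E005 had a mean index of 0.35 Upstream (0.34, 0.45 and 0.26) and -0.24 Downstream (-0.23, -0.19 and -0.30). Its Downstream mean joins a low plus and a high minus orientation. E012, within Zfp961, had -0.28 Upstream (-0.38, -0.34 and -0.10) and 0.04 Downstream (0.06, 0.03 and 0.02). E017, between Zfp961 and Cyp4f18, had 0.086 Upstream (0.10, 0.02 and 0.14) and -0.21 Downstream (-0.25, -0.16 and -0.23). E018, in the same interval, had 0.12 Upstream and -0.11 Downstream, and its lowest Upstream replicate was 0.00047.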

How the results depend on the processing

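Under settings that kept all replicates, 140 values of named items kept direction and side of the threshold, 9 no longer passed and 5 newly passed, and none reversed. The Downstream means were not tested against the promoter vectors alone, where most pairs of E003 and E012 that passed were lower. With 1 replicate left out, 77 kept both, 38 no longer passed and 2 newly passed. With the replicate block, Upstream pairs came to 57 higher and 143 lower (27 and 64 without it), Downstream pairs to 80 lower (40) and inserts without promoter to 23 higher and 4 lower (14 and 1). The block changed no call of a named pair. Against the median construct, Upstream pairs came to 42 higher and 3 lower, Downstream pairs to 62 lower, and Downstream means to 9 lower (3). Against the promoter alone, Downstream pairs came to 46 higher (123) and 126 lower, and Upstream means to 7 lower (3). Medians over promoters gave 7 lower Downstream means. The pseudocount gave 5 lower Downstream means, 1 lower Upstream mean and 3 members higher with cluster promoters (0). Counts over the whole locus are not given for these settings, so the members' counts are not compared with it.

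With 1 replicate left out, members' counts ranged as follows. Upstream pairs were 0 to 0 in both directions (25 to 74 higher and 52 to 161 lower at an unadjusted p under 0.05). Downstream pairs were 90 to 130 higher and 22 to 50 lower. Inserts without promoter were 5 to 22 higher and 0 to 4 lower. Upstream means were 0 to 4 in each direction, at 0 without replicate 1. Downstream means were 8 to 8 higher and 3 to 6 lower. Overlapping cCREs were 0 to 9 higher and 0 to 1 lower Upstream, 34 to 35 and 2 to 2 Downstream. Depth is unknown. Weak Upstream constructs differ in level between replicates, and the part of this in the calls was not tested.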
